A study of Mus musculus with 2 samples.

Results

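The genes described here are the chemokines Ccl3, Ccl4 and Ccl5 and the receptor Ccr1, 4 of the 33696 genes in the deposited matrices. They were taken as a listed ligand and receptor set, and all 4 were found in both libraries. The rule sets no threshold on their values, but the list was drawn up with earlier results of these data known. The samples were solid tumours of the ID8 model, in which a mouse ovarian epithelial cancer line grows as tumours in mice. The primary library came from treatment naïve tumours and the chemoresistant library from tumours given cisplatin, a platinum drug that crosslinks DNA. Each group was 1 pool of digested tumours loaded on a droplet chip with 3' v3 chemistry, after red cell lysis, so animals cannot be told apart and each group has 1 library. The number of tumours in a pool, the mouse strain and age, and the dose and timing of cisplatin are not given in the sources used here. With 1 library per group no test between groups was possible, and every interval below is a 95% interval that covers counting error only.

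Ccl3 and Ccl4, also called MIP-1 alpha and MIP-1 beta, are small secreted proteins that attract myeloid cells and lymphocytes. Their transcripts are induced quickly in macrophages, neutrophils and other leukocytes after NF-kB or MAP kinase signalling. Ccl5, also called RANTES, is made by activated cytotoxic T cells, natural killer cells and mature dendritic cells. Ccr1 is a G protein coupled receptor of myeloid cells that binds Ccl3 and Ccl5. Tumours that contain many myeloid cells often hold both the ligands and this receptor.

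The 3 ligand genes lie in the CC chemokine cluster of chromosome 11, here placed with GENCODE vM21 on GRCm38. Ccl5 spans chr11:83525778-83530518 on the minus strand, Ccl3 spans chr11:83647844-83649355 on the minus strand, and Ccl4 spans chr11:83662584-83664683 on the plus strand. Ccl3 and Ccl4 are neighbours in opposite orientation with 13228 bases between them, and 117325 bases separate Ccl5 from Ccl3, with Ccl9 and Ccl6 in that interval. Ccr1 lies on another chromosome, at chr9:123962124-123968692 on the minus strand. RefSeq start regions on GRCm38.p6 were matched for 2 of the 4 genes, Ccl3 and its receptor Ccr1, and only these are shown. Both genes were carried by neutrophils and mononuclear phagocytes. Each line gives the 250 bases before the RefSeq start, on the minus strand at chr11:83649379-83649628 for Ccl3 and at chr9:123968693-123968942 for Ccr1, and capitals mark the motif matches.
Ccl3: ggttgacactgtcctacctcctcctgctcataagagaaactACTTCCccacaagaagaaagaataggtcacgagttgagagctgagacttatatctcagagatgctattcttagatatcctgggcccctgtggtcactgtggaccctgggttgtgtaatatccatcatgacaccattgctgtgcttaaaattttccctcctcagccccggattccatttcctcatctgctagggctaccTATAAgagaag
Ccr1: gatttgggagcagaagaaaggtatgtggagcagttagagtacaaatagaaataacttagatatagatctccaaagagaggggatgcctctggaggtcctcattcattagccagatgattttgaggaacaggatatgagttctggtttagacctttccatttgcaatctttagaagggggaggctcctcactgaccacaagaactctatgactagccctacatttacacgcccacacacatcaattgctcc
The motifs searched were TATAA on the strand of the gene, and TGANTCA (AP-1), TTGCNNAA (C/EBP), an NF-kB motif and GGAAGT (the ETS type bound by PU.1) on both strands. The Ccl3 region held TATAA at -11 to -7 from the RefSeq start, which lies 23 bases upstream of the GENCODE start, so that the match begins at -34 from the latter. It also held GGAAGT on the opposite strand, printed as ACTTCC, at -209 to -204. TATAA occurred in 16.0% of the 32851 regions of the same length and GGAAGT in 19.7%. The other 3 motifs occurred in 6.75% (TGANTCA), 9.56% (TTGCNNAA) and 4.65% (NF-kB) of regions, and none of the 5 was found in the Ccr1 region. A match is a description of the letters only.

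The libraries held 141334623 and 158118781 transcript counts (unique molecular identifiers, UMIs) on 14390 and 16390 barcodes, primary first here and in every pair below. After limits on depth and mitochondrial share and removal of doublets, 11508 and 13130 cells remained, with a median of 5422.5 and 4156 UMIs. Cells were put in classes by the share of each of 16 marker lists that they held, and 452 and 632 cells fitted none. Of the marker lists, 13 of 13 neutrophil genes, 14 and 15 of 16 mononuclear phagocyte genes, 13 of 13 T cell genes and 11 of 12 dendritic cell genes were highest in their own class. For the tumour list this held for 14 and 13 of 14 genes. The classes used most were neutrophils (1455 and 718 cells), mononuclear phagocytes (macrophages and monocytes, 3258 and 4280), T cells (987 and 273) and dendritic cells (549 and 509). The depth per cell was lower in the chemoresistant library for each of these: the median was 2419 against 910.5 UMIs in neutrophils, 10363 against 5223.5 in mononuclear phagocytes, 4812 against 1773 in T cells and 8660 against 4971 in dendritic cells. Shares of cells with a transcript are therefore also given after each cell was thinned to 500 UMIs. The libraries shared 52 barcodes, 38 of them among the cells kept, and leaving those cells out moved no ratio of the 4 genes to the other side of 1.5-fold.

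A level is given in CPM, the UMIs of a gene in a class divided by all UMIs of the class and scaled to a total of 1e+06. A difference between libraries is log2 of the chemoresistant over the primary level after adding 5 CPM to each, and is called higher or lower when it passed 1.5-fold. Because 3' counting is not scaled to transcript length, levels are compared between classes and libraries within a gene and not between genes. Genes with a mean of at least 10 CPM formed the background of each class. The median gene lay at -0.23 on the log2 scale in mononuclear phagocytes, dendritic cells and fibroblasts, at -0.12 in tumour cells, at -0.08 in B cells and at -0.06 in neutrophils and T cells. Centring on it moved the calls of 1.5-fold from 179 higher and 749 lower genes to 566 and 153 in mononuclear phagocytes, from 351 and 1239 to 812 and 357 in dendritic cells, and from 853 and 2480 to 1449 and 1626 in fibroblasts. In tumour cells it moved the higher genes from 347 to 580 and the lower ones from 859 to 592.

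Among classes with at least 100 cells in both libraries, Ccl3 and Ccl4 were highest in neutrophils of the primary library, Ccl5 was highest in T cells of the chemoresistant library, and Ccr1 was highest in neutrophils of the primary library. In the primary library the order of Ccl3 levels was neutrophils, then mononuclear phagocytes, then T cells, with the 95% intervals of these classes apart. In the chemoresistant library it was neutrophils, T cells and then mononuclear phagocytes, again with intervals apart. Ccl4 was highest in neutrophils and then mononuclear phagocytes in the primary library, and highest in T cells, then neutrophils, in the chemoresistant library, where the neutrophil interval of 387 to 466 CPM overlapped that of mononuclear phagocytes at 384 to 399 CPM. Ccl5 was highest in T cells and then dendritic cells in both libraries, and Ccr1 was highest in neutrophils and then mononuclear phagocytes in both.

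**Figure D1:**
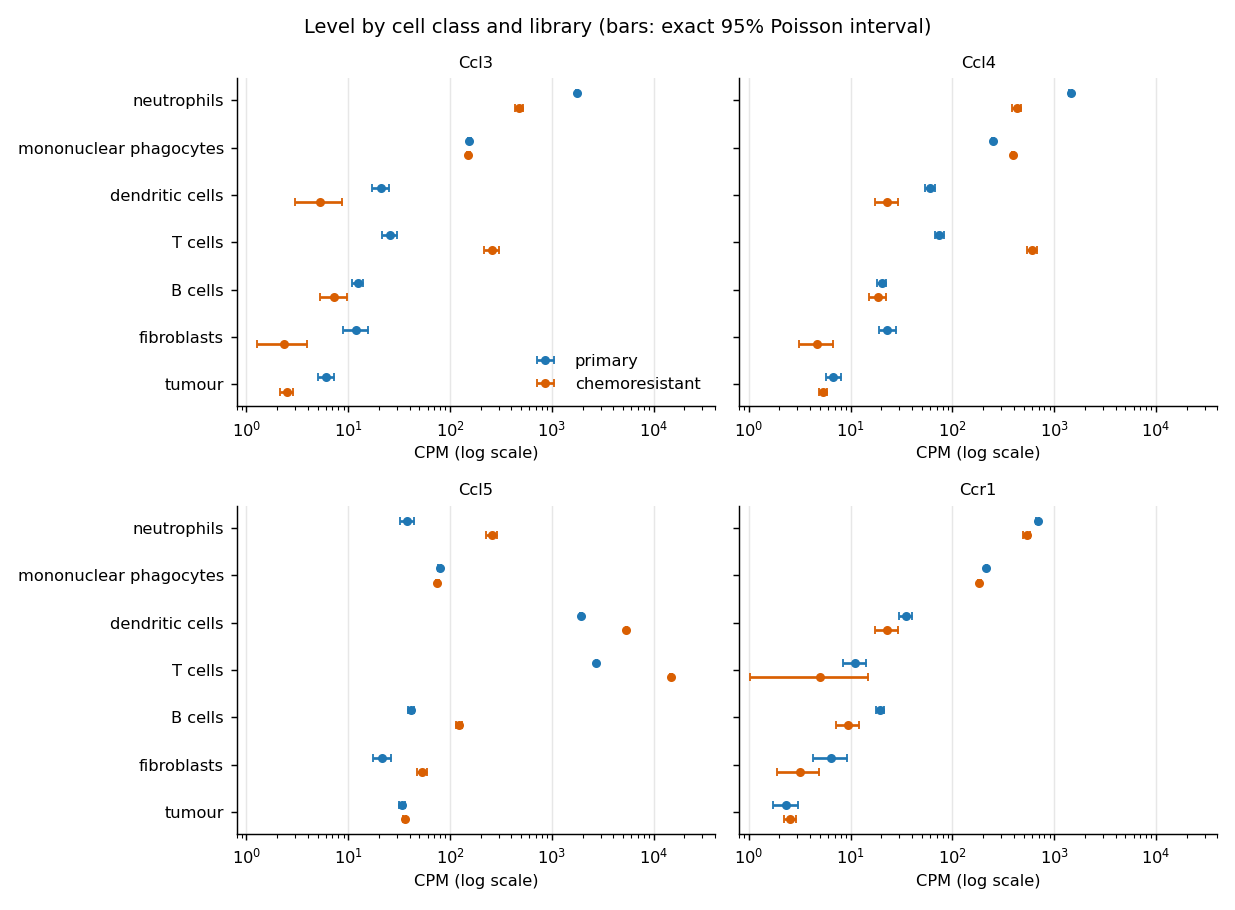
Level of each gene (CPM, log axis) in each cell class of both libraries; points are the summed level of a class and bars the exact Poisson 95% interval, which covers counting error only. Among classes with at least 100 cells in both libraries, Ccl3 and Ccl4 lie highest in neutrophils of the primary library. In the chemoresistant library Ccl4 lies highest in T cells. Ccl5 lies highest in T cells and then dendritic cells, and Ccr1 in neutrophils and then mononuclear phagocytes.

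In neutrophils, Ccl3 was lower in the chemoresistant library. Its level was 1751 CPM (95% interval 1712 to 1792, 7317 UMIs) in the primary library and 471 CPM (431 to 514, 511 UMIs) in the chemoresistant library. The difference was -1.88 on the log2 scale, a 3.69-fold lower level, where 14.2% of all genes tested in neutrophils were lower and 14.9% higher by 1.5-fold. A Ccl3 transcript was found in 49.1% of primary and 23.0% of chemoresistant neutrophils, and in 27.1% (24.9 to 29.5%) and 15.6% (13.02 to 18.5%) after thinning. Tumour cells, which are not a known source of Ccl3, held it in 0.489% and 0.272% of thinned cells, at median depths of 28287.5 and 20126 UMIs before thinning, so the neutrophil shares lay far above this background. The 10% of neutrophils with the most Ccl3 held 76.3% and 81.4% of its UMIs in the class.

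Ccl4, the neighbouring gene, was also lower in chemoresistant neutrophils. Its level was 1444 CPM (1407 to 1480, 6031 UMIs) and 425 CPM (387 to 466, 461 UMIs), a difference of -1.75 on the log2 scale or a 3.37-fold lower level. The share of neutrophils with a Ccl4 transcript was 23.9% and 15.3%, and 14.0% (12.3 to 15.9%) and 9.75% (7.68 to 12.2%) after thinning. The 10% of neutrophils richest in Ccl4 held 93.5% and 91.8% of its UMIs. The primary library therefore had the higher level and the larger share of positive neutrophils for both genes. The summed level of the neutrophil markers was itself lower in this class, 58158 against 43766 CPM, while that of tumour markers was 285 against 1290 CPM and that of mononuclear phagocyte markers 2502 against 2892 CPM. The part of these differences in the Ccl3 and Ccl4 values was not tested.

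Within neutrophils both genes lay highest in cells with tissue-type transcripts and no mature ones. Of the 3 tissue-type genes, 2 were higher by 1.5-fold in neutrophils with Ccl3 than in those without, in each library. Cells with transcripts of Siglecf, Cd274 or Ccrl2 and none of the mature genes Mmp9, Retnlg, Mmp8 and Cxcr2 held Ccl3 at 7671 CPM (7363 to 7988, 101 cells) in the primary and 7758 CPM (6558 to 9113, 18 cells) in the chemoresistant library, intervals that overlap. Cells with both kinds of transcript held it at 1978 CPM and 631 CPM, and cells with mature transcripts only at 515 CPM and 208 CPM. The Ccl3 level of the small tissue-type group thus differed by less than its counting error, and these other 2 groups were lower in the chemoresistant library. The smallest group, with neither kind of transcript (32 and 24 cells), went the other way: Ccl3 was at 505 CPM (345 to 712) and 1351 CPM (930.2 to 1898), and Ccl4 at 284 and 901 CPM. The groups also differed in size: cells with both kinds of transcript were 42.1% of primary and 19.2% of chemoresistant neutrophils, and cells with mature transcripts only were 48.8% and 74.9%. These shares depend on the depth per cell, which was lower in the chemoresistant library. Ccl4 showed the same order in the primary library, with 6821 CPM in tissue-type cells, 1737 CPM in cells with both and 220 CPM in mature cells. In the chemoresistant library it was 6500 CPM in tissue-type cells, but 93 of those 124 UMIs lay in 1 cell and the level without it was 1777 CPM. Chemoresistant cells with both kinds of transcript held Ccl4 at 601 CPM and mature cells at 199 CPM. In mature cells, the largest group, the Ccl4 difference between libraries was thus -0.14, within 1.5-fold, unlike that of Ccl3.

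Clustering of all cells, which used these genes among others and is given as description, placed much of the signal in a small group. Cluster 7, led by Acod1, Hcar2, Cxcl2 and Ccl3, held 12.4% of primary and 4.74% of chemoresistant neutrophils. Those cells carried 71.6% and 51.3% of the Ccl3 UMIs of the class, at 9664 and 6770 CPM. Cluster 6, led by Retnlg, Il1r2 and Cxcr2, held Ccl3 at 638 and 352 CPM and Ccl4 at 265 and 357 CPM. Over both libraries the tissue-type gene Siglecf was at 145 CPM in neutrophils of cluster 6, against 7.56 CPM in the rest of the class. Cd274 and Ccrl2 were at 4286 and 3438 CPM in those of cluster 7, against 66.9 and 113 CPM. Ccl3 thus followed Cd274 and Ccrl2, but not Siglecf. A further 55 and 6 cells of cluster 7 had no class, and carried 787 and 36 UMIs of Ccl3.

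**Figure D2:**
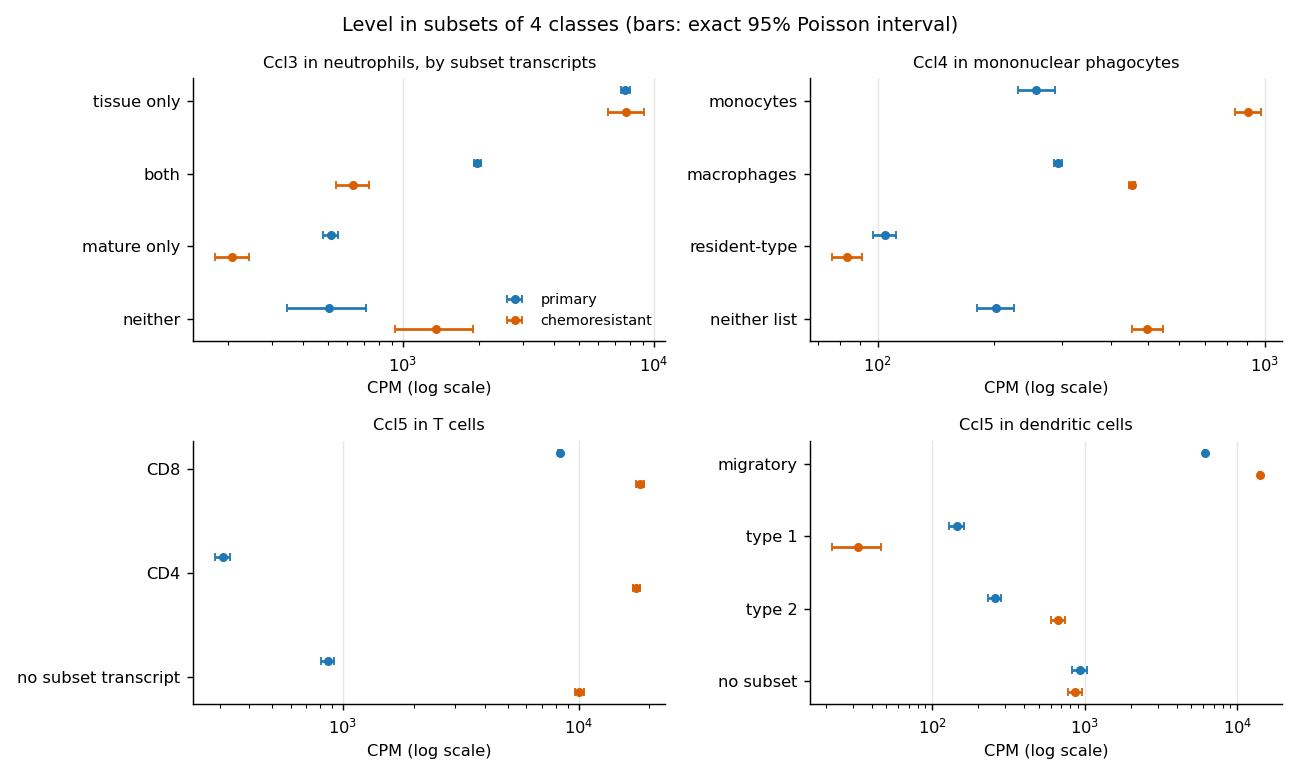
Level (CPM, log axis) of Ccl3 in subsets of neutrophils, of Ccl4 in subsets of mononuclear phagocytes and of Ccl5 in subsets of T cells and dendritic cells; points are the summed level in each library, with exact Poisson 95% intervals. Neutrophils with tissue-type transcripts hold Ccl3 at 7671 and 7758 CPM, CD4 T cells hold Ccl5 at 308 and 17621 CPM, and migratory dendritic cells hold Ccl5 at 6134 and 14063 CPM.

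In mononuclear phagocytes the 2 neighbouring genes parted. Ccl3 was at 155 CPM (151 to 159, 5923 UMIs) and 151 CPM (146 to 155, 4367 UMIs), a difference of -0.04 that lay within 1.5-fold. Ccl4 was at 249 CPM (244 to 254, 9507 UMIs) and 391 CPM (384 to 399, 11345 UMIs), a difference of 0.64 or a 1.56-fold higher level, where 2.09% of genes tested in the class were higher and 8.72% lower. That call was close to its limit: the difference was 0.30 without doublet removal, 0.57 with automatic doublet calls or as a mean over cells, and 0.58 in thinned cells, each within 1.5-fold. The share of cells with Ccl4 was 27.7% and 26.5%, and 6.60% (5.77 to 7.51%) and 9.42% (8.56 to 10.3%) after thinning, and for Ccl3 the thinned shares were 6.38% and 6.73%. The richest 10% of cells held 79.9% and 79.0% of Ccl3 and 92.3% and 90.8% of Ccl4 UMIs.

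Macrophages with C1q, Adgre1 or Mrc1 transcripts held Ccl4 at 293 and 454 CPM, and monocytes, the smaller group with 140 and 180 cells, at 257 and 907 CPM. Resident-type macrophages, marked by Vsig4, Timd4 or Icam2, were lowest in each library, with 104 and 83.2 CPM of Ccl4 and 104 and 63.0 CPM of Ccl3. In clusters, cluster 14 (led by Mmp12, Ccl4, Il1a, Tnf and Il1b) made up 7.55% and 13.3% of the class and held 67.2% and 86.3% of its Ccl4 UMIs, at 2404 and 3144 CPM. Its Ccl3 level was 957 and 936 CPM. In the primary library 40 cells of the class, 1.23% of it, lay in cluster 7, the Ccl3-rich neutrophil cluster, and held 1026 of its Ccl3 UMIs (17.3%) at 9851 CPM, while too few chemoresistant cells of the class lay there for a value. The summed level of neutrophil markers in mononuclear phagocytes was 445 and 223 CPM, and that of T cell markers 27.6 and 4.90 CPM. Their part in the Ccl3 and Ccl4 values was not tested.

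In T cells both genes were higher in the chemoresistant library. Ccl3 was at 25.4 CPM (21.3 to 30.02, 138 UMIs) and 257 CPM (218 to 301, 153 UMIs), a difference of 3.11 or 8.61-fold, where 8.91% of genes tested in T cells were higher and 14% lower. Ccl4 was at 74.6 CPM (67.5 to 82.2, 405 UMIs) and 606 CPM (545 to 672, 361 UMIs), a difference of 2.94 or 7.68-fold. Single cells weighed on both: 40 of the 153 Ccl3 UMIs and 108 of the 361 Ccl4 UMIs of the chemoresistant class lay in 1 cell, and without the richest cell of each library the differences were 2.78 and 2.58. After thinning, 2.33% (1.48 to 3.48%) and 9.52% (6.32 to 13.6%) of T cells held Ccl4, and 0.912% (0.418 to 1.72%) and 3.66% (1.77 to 6.63%) held Ccl3.

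CD4 T cells, those with a Cd4 transcript and none of Cd8a, Cd8b1 or Foxp3, carried most of this signal in the chemoresistant library. Ccl4 was found in 19 of 348 primary and 36 of 74 chemoresistant CD4 T cells, at 12.0 and 1418 CPM, and Ccl3 in 19 and 18 of them, at 10.2 and 637 CPM. CD8 T cells went the other way for Ccl4, with 202 CPM (180 to 226, 254 cells) and 101 CPM (57.8 to 164, 73 cells). Their Ccl3 level was 55.0 CPM (43.8 to 68.3) and 25.3 CPM (6.89 to 64.7, 4 UMIs), intervals that overlap. The difference between these subsets was not tested. Which cells fall in a subset also depends on the depth per cell, which was lower in chemoresistant T cells. In clusters, cluster 25 (led by Gzma and Nkg7) held 146 Ccl3 and 332 Ccl4 UMIs of chemoresistant T cells, 95.4% and 92.0% of the class. Over both libraries T cells of this cluster held the CD8 genes Cd8a and Cd8b1 at 327 and 201 CPM. The rest of the class held them at 5.31 and 3.25 CPM. How CD4 T cells were spread over the clusters was not tested. Cluster 26 (led by Icos and Camk4) held 2 and 7. Markers of mononuclear phagocytes summed to 757 CPM in primary and 1393 CPM in chemoresistant T cells, those of dendritic cells to 374 and 648 CPM, and those of neutrophils to 210 and 141 CPM with 5 of 13 at 0 in the latter. The part of such RNA in the T cell values was not tested.

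In the other classes Ccl3 and Ccl4 were low. In dendritic cells Ccl3 was at 20.9 and 5.31 CPM (-1.33) and Ccl4 at 59.8 and 22.7 CPM (-1.23), where 15% of genes tested in the class were lower and 4.26% higher. Neither call held under every setting: without doublet removal the differences were -0.14 and -0.06, and 172 of the 312 primary Ccl4 UMIs lay in 1 cell, without which that difference was -0.36. Subsets of dendritic cells went different ways for Ccl4. It was at 18.4 and 54.1 CPM in type 1 cells (marked by Xcr1 and Clec9a) and at 175 and 14.4 CPM in type 2 cells (marked by Cd209a). In migratory cells (marked by Ccr7 and Fscn1) it was at 10.8 and 3.87 CPM. The cell with 172 primary UMIs was not left out of these subset values. In clusters, dendritic cells of cluster 23 (led by Ctnnd2 and Cd209a) held Ccl4 at 10.6 and 12.5 CPM, with intervals that overlap. The lower type 2 level was thus not seen there. Those of cluster 24 (led by Clec9a and Xcr1) held it at 18.1 and 47.8 CPM. In fibroblasts Ccl4 was at 23.0 and 4.64 CPM (-1.54), with 57 of 104 primary UMIs in 1 cell and -0.73 without it, where 27.5% of genes tested were lower and 9.45% higher. Cluster 18 held 97.7% of primary fibroblasts and cluster 33 held 93.6% of chemoresistant ones, so this difference sets different clusters side by side. Tumour cells held 6.08 and 2.47 CPM of Ccl3 and 6.77 and 5.36 CPM of Ccl4. Outside the compared classes, 33 primary natural killer cells held 445.5 CPM of Ccl3 and 1201 CPM of Ccl4, the latter in 18 cells. The 19 primary cells with mast cell or basophil markers held 4318 CPM of Ccl3 (3795 to 4892), all of it in 6 cells and 90 of its 246 UMIs in 1.

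Ccl5 was higher in chemoresistant T cells and dendritic cells, its main carriers. In T cells it was at 2735 CPM (2691 to 2779, 14855 UMIs) and 14843 CPM (14535 to 15155, 8845 UMIs), a difference of 2.44 or 5.42-fold. A Ccl5 transcript was found in 35.0% (32.0 to 38.02%) and 57.5% (51.4 to 63.4%) of T cells, and in 22.1% and 53.5% after thinning. Thinned tumour cells held it in 1.63% and 1.22%. Both the level and the share of positive T cells were therefore above those of the primary library. The dendritic cell markers, at 374 and 648 CPM, were also higher in this class, and their part in the Ccl5 values was not tested.

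The Ccl5 level of T cells rested on different subsets in the 2 libraries. CD8 T cells, the cytotoxic lineage, held 8344 CPM (8198 to 8492) and 18273 CPM (17613 to 18952), with a transcript in 64.2% and 80.8% of cells. CD4 T cells held 308 CPM (285 to 332) and 17621 CPM (17066 to 18189), with a transcript in 20.1% (16.0 to 24.7%) and 67.6% (55.7 to 78.0%) of cells. In the primary library CD4 T cells thus lay far below CD8 T cells, and in the chemoresistant library the intervals of these subsets overlapped. Gamma delta T cells held 2039 CPM (75 cells) and 8576 CPM (10 cells), and T cells with no subset transcript 861 and 10074 CPM. Cells with no subset transcript were 26.7% of primary and 41.4% of chemoresistant T cells. The subsets depend on detected transcripts and so on the depth per cell, which was lower in the chemoresistant library. Regulatory T cells held 103 CPM in 40 primary cells, and 0 UMIs in 3 chemoresistant cells, which allows up to 479 CPM. In clusters, cluster 25 (led by Gzma and Nkg7) made up 45.7% and 70.7% of T cells with Ccl5 at 6227 and 19304 CPM, and cluster 26 (led by Icos and Camk4) held 243 and 188 CPM.

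In dendritic cells Ccl5 was at 1933 CPM (1896 to 1971, 10088 UMIs) and 5390.5 CPM (5305 to 5477, 15227 UMIs), a difference of 1.48 or 2.78-fold. It was found in 49.0% and 50.9% of dendritic cells, and in 23.9% (20.4 to 27.7%) and 37.9% (33.7 to 42.3%) after thinning. Migratory dendritic cells, the Ccr7 and Fscn1 bearing cells that travel to lymph nodes, held nearly all of it, at 6134 CPM (6008 to 6261) and 14063 CPM (13835 to 14293), with a transcript in 95.5% and 96.4% of cells. They made up 28.4% (24.7 to 32.4%) and 38.3% (34.1 to 42.7%) of dendritic cells. Type 1 dendritic cells, marked by Xcr1 and Clec9a, held 144 and 32.5 CPM, with 209 of the 275 primary UMIs in 1 cell. Type 2 dendritic cells, marked by Cd209a, held 256 and 667 CPM, with 165 of the 324 chemoresistant UMIs in 1 cell. Markers of T cells summed to 22.8 and 7.79 CPM in dendritic cells, with 7 of 13 at 0 in the chemoresistant library, and those of natural killer cells to 19.5 and 15.6 CPM.

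In the other compared classes Ccl5 was lower than in T cells and dendritic cells of the same library. In mononuclear phagocytes it was at 79.4 and 75.2 CPM (-0.07), with 351 primary UMIs in 1 cell, and the difference was 0.76 without doublet removal. In neutrophils it was at 38.1 and 256 CPM (2.60), but 104 of the 278 chemoresistant UMIs lay in 1 cell. The difference was 2.07 without the richest cells and 0.58, within 1.5-fold, with classes set by clusters, and the thinned shares of positive neutrophils, 2.34% (1.62 to 3.25%) and 3.20% (2.04 to 4.77%), overlapped. T cell markers summed to 32.1 and 55.4 CPM and dendritic cell markers to 426 and 491 CPM in neutrophils, and all 10 natural killer markers were at 0 in the chemoresistant ones. In fibroblasts Ccl5 was at 21.7 and 52.9 CPM (1.12), with 154 of 319 chemoresistant UMIs in 1 cell, 0.75 without it, and the opposite sign, -0.33, with classes set by clusters. Tumour cells held 33.6 and 35.7 CPM, of which 1073 of 2640 chemoresistant UMIs lay in 1 cell, where 3.92% of genes tested in that class were higher and 9.69% lower. Natural killer cells, a textbook source, held 7183 CPM in 33 of 33 primary cells, above the T cells and dendritic cells of that library, and 4065 CPM in 6 of 7 chemoresistant cells. Plasmacytoid dendritic cells held 798 and 241 CPM, and erythroid cells 71.4 and 876 CPM, with 167 of the 410 chemoresistant UMIs of the latter in 1 cell.

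In clusters 5 and 10 of B cells and cluster 18 of tumour cells, the 10 leading genes held markers of another class and none of their own. Each of the B cell clusters held 1 such marker, of plasma cells in cluster 5 and of dendritic cells in cluster 10. B cells also lay in different clusters by library: cluster 9 held 57.8% of primary B cells and cluster 12 held 80.4% of chemoresistant ones. Their Ccl5 level was 41.4 and 122 CPM, and 57.6 and 142 CPM when B cells of clusters 5 and 10 were left out. Ccl4 in B cells was at 20.1 and 18.5 CPM. Ccr1 was at 19.4 and 9.47 CPM, a difference of -0.76 called lower, and lay within 1.5-fold with classes set by clusters (-0.27), as a mean over cells (-0.53) and in thinned cells (-0.57). In B cells 5.47% of genes tested were higher and 7.47% lower by 1.5-fold.

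**Figure D3:**
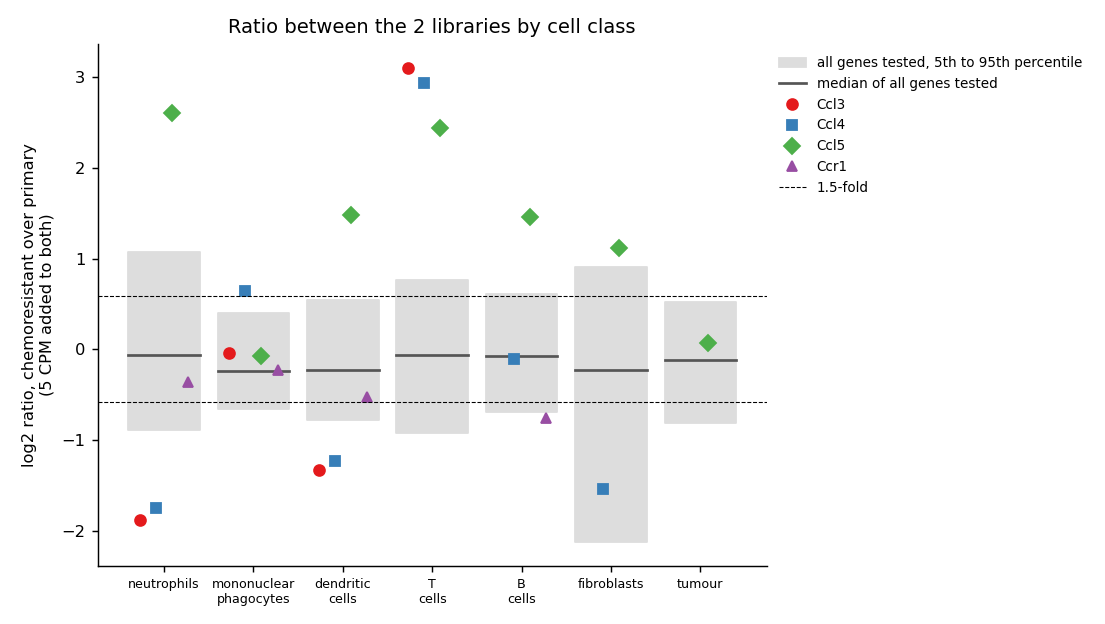
Difference between libraries (log2 of chemoresistant over primary CPM, 5 CPM added) of each gene in the classes where it was tested; the shaded range runs from the 5th to the 95th percentile of all genes tested in the class, and dashed lines mark 1.5-fold. Ccl3 and Ccl4 lie below 0 in neutrophils (-1.88 and -1.75) and above 0 in T cells (3.11 and 2.94), and Ccl5 lies above 0 in T cells and dendritic cells (2.44 and 1.48).

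The receptor Ccr1 lay within 1.5-fold between libraries in neutrophils, mononuclear phagocytes and dendritic cells, and was lower in B cells, the other class where it was tested. In neutrophils it was at 686 CPM (661 to 712, 2867 UMIs) and 534 CPM (492 to 580, 579 UMIs), a difference of -0.36 within 1.5-fold. It was found in 74.2% and 50.6% of neutrophils, but in 32.2% (29.8 to 34.6%) and 31.2% (27.8 to 34.7%) after thinning, so the shares overlapped at equal depth. The difference passed 1.5-fold without doublet removal (-0.59) and under stricter barcode limits (-0.81), and was 0.13 with classes set by clusters. In mononuclear phagocytes Ccr1 was at 216 CPM (211 to 220, 8248 UMIs) and 184 CPM (179 to 189, 5340 UMIs), a difference of -0.22 that lay beside the median gene of the class. Its thinned shares there were 10.3% (9.26 to 11.4%) and 10.0% (9.12 to 10.9%).

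Ccr1 was spread over myeloid cells more evenly than the ligands. The richest 10% of cells held 31.8% and 37.8% of its UMIs in neutrophils and 32.4% and 39.2% in mononuclear phagocytes. Mature neutrophils held it at 816 and 540 CPM and tissue-type ones at 384 and 629 CPM, an order opposite to that of Ccl3 in the primary library, and the chemoresistant tissue-type group had 18 cells with an interval of 325 to 1099 CPM. Macrophages held 208 and 178 CPM, monocytes 252 and 163 CPM and resident-type macrophages 238 and 221 CPM. In dendritic cells it was at 34.7 and 22.7 CPM (-0.52), mostly in type 2 cells with 101 and 78.3 CPM, against 4.72 and 3.87 CPM in migratory cells, the carriers of Ccl5. T cells held 11.05 and 5.03 CPM, tumour cells 2.32 and 2.54 CPM and fibroblasts 6.41 and 3.15 CPM.

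Over a whole library, the levels of all 4 genes were below the primary ones in the chemoresistant library, for Ccl5 by less than 1.5-fold. No background of all genes was set at this level. Tumour cells held 21556864 of 115998259 primary and 73945551 of 127736073 chemoresistant UMIs. Ccl3 was at 131 and 42.4 CPM (15245 and 5414 UMIs), Ccl4 at 156 and 102 CPM, Ccl5 at 289 and 253 CPM and Ccr1 at 104 and 49.9 CPM. These totals join the level in each class with the number of cells: the libraries held 614 and 2941 tumour cells and 987 and 273 T cells, and pooled libraries cannot tell a lower share of T cells in the tumour from a lower share recovered. With the chemoresistant levels of 14 classes weighted by the primary mix of UMIs, Ccl5 was at 1060 CPM, against 295 CPM with primary levels in the same mix. With primary levels in the chemoresistant mix it was at 113 CPM. For Ccl3 the corresponding values were 84.3 CPM with chemoresistant levels in the primary mix and 57.7 CPM with primary levels in the chemoresistant mix, both below 129 CPM. For Ccl4 they were 186 and 79.6 CPM beside 158 CPM, and for Ccr1 87.2 and 60.6 CPM beside 107 CPM.

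The carriers of each transcript shifted accordingly. Of all Ccl3 UMIs, neutrophils held 48.0% (47.2 to 48.8%) in the primary library and 9.44% (8.67 to 10.2%) in the chemoresistant one, and mononuclear phagocytes 38.9% and 80.7%. Mononuclear phagocytes held 52.5% and 87.4% of Ccl4 and neutrophils 33.3% and 3.55%. For Ccl5, T cells held 44.4% (43.8 to 44.9%) and 27.4% (26.9 to 27.9%), and dendritic cells 30.1% and 47.1%. Mononuclear phagocytes held 68.4% and 83.8% of Ccr1 UMIs and neutrophils 23.8% and 9.09%.

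**Figure D4:**
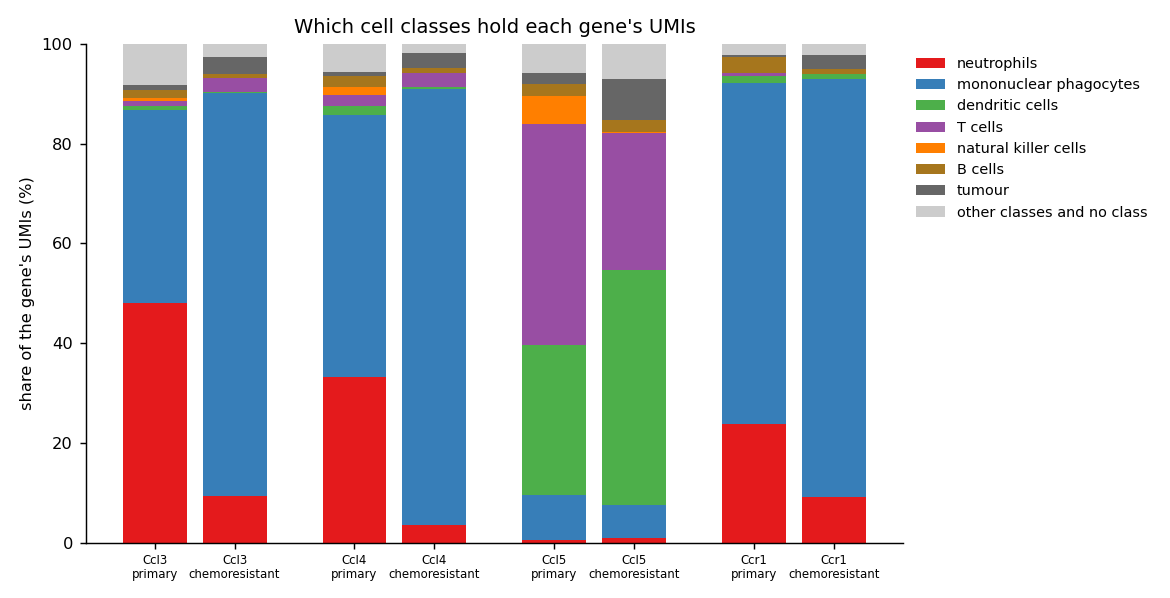
Share (%) of all UMIs of each gene that each cell class held in the primary and the chemoresistant library; stacked bars sum to 100% of the UMIs in the cells kept. The neutrophil share of Ccl3 is 48.0% and 9.44%, and the dendritic cell share of Ccl5 is 30.1% and 47.1%.

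Ccl4 was found more often in cells with a Ccl3 transcript than in cells without, as a description in which cells of a library are not replicates. In thinned primary neutrophils Ccl4 was found in 35.2% of cells with Ccl3 (139 of 395) and 6.13% of cells without, and in chemoresistant ones in 26.8% (30 of 112) and 6.60%. In thinned mononuclear phagocytes it was found in 38.5% (80 of 208) and 4.43% in the primary library, and in 47.2% (136 of 288) and 6.69% in the chemoresistant library. Ccr1 did not follow this pattern. Among thinned primary neutrophils it was found in 31.9% of cells with Ccl3 and 32.3% without, and in chemoresistant ones in 33.0% and 30.9%. In thinned T cells Ccl5 was found in 78.3% (18 of 23) of primary cells with Ccl4 and 20.7% without, and in 80.8% (21 of 26) and 50.6% of chemoresistant cells.

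**Figure D5:**
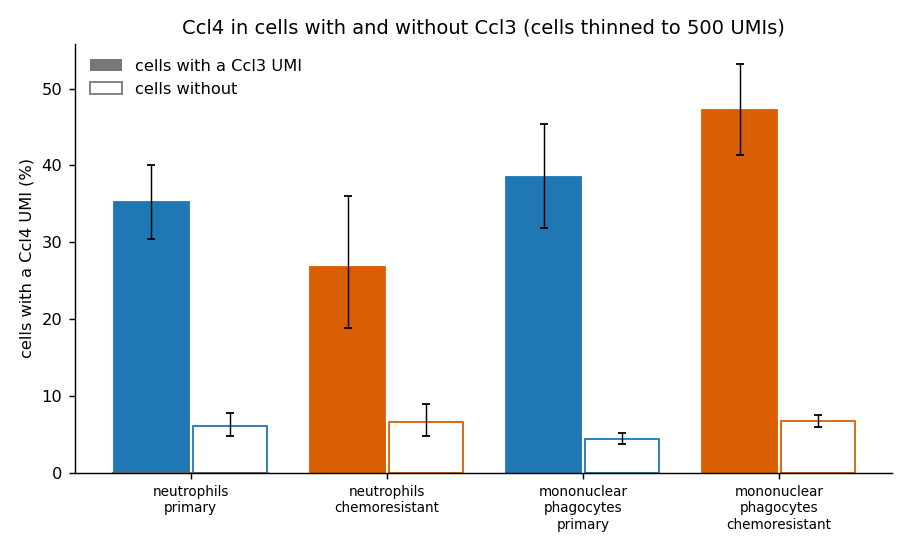
Share (%) of neutrophils and mononuclear phagocytes, each thinned to 500 UMIs, that held Ccl4 among cells with Ccl3 (filled bars) and without it (open bars) in each library; error bars are exact binomial 95% intervals. Ccl4 is found in 35.2% of primary neutrophils with Ccl3 and 6.13% without, and in 47.2% and 6.69% of chemoresistant mononuclear phagocytes.

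Neutrophils with a Ccl3 transcript also held more of the inducible genes listed as induced with it by NF-kB or MAP kinase signalling. In the primary library 16 of 27 tested were higher by 1.5-fold than in neutrophils without Ccl3 and 1 was lower, with a median log2 difference of 0.83, beside 7.59% higher, 5.51% lower and a median of -0.03 over all genes. In the chemoresistant library 20 of 27 were higher and 0 lower, with a median of 1.26, beside 14.5% higher, 16.9% lower and a median of -0.02. Primary neutrophils with Ccl3 held 14850 CPM of Cxcl2, a neutrophil attractant, against 2186 CPM without, 402 against 12.2 CPM of Il1a, 639 against 86.4 CPM of Tnf and 1150 against 91.9 CPM of Cd274, the ligand of PD-1. Retnlg, a gene of mature neutrophils, went the other way with 1164 against 3753 CPM. Cells with Ccl3 were slightly deeper, with a median of 2599 against 2255 UMIs in the primary and 1037 against 887 in the chemoresistant library.

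Mononuclear phagocytes with a Ccl4 transcript showed the same list higher. In the primary library 20 of 26 tested genes were higher, with a median of 1.07, beside 1.88% of all genes higher and 1.01% lower, and in the chemoresistant library 22 of 26, with a median of 1.42, beside 2.87% higher and 0.63% lower. Chemoresistant cells with Ccl4 held 314 against 25.1 CPM of Tnf, 653 against 88.1 CPM of Il1b and 101 against 10.4 CPM of Tnfsf9, a costimulatory ligand. Primary cells with Ccl4 held 335 against 39.4 CPM of Cd83, and Ccr1 was alike at 214 and 217 CPM. Their median depth was 11720 against 9984 UMIs in the primary library and 6029.5 against 4908.5 UMIs in the chemoresistant library.

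T cells with a Ccl5 transcript held the cytotoxic genes. In the primary library 15 of 18 genes tested were higher than in T cells without Ccl5 (median 2.06), beside 10.9% of all genes higher and 5.07% lower, and in the chemoresistant library 17 of 17 (median 3.11), beside 22.4% higher and 21.5% lower. Gzma, a granule protease, was at 4585 against 11.4 CPM in primary and 4364 against 147 CPM in chemoresistant cells. Cd8a was at 290 against 56.5 CPM and 169 against 25.4 CPM. Cd4 was lower in primary T cells with Ccl5, at 71.3 against 184 CPM, and was at 225 against 183 CPM in chemoresistant ones. In dendritic cells with Ccl5, 4 of 4 markers of migratory cells were higher in each library, with medians of 3.98 and 4.18, beside 11% and 12.4% of all genes higher and 14.1% and 18.6% lower. Ccr7 was at 523 against 10.5 CPM and 627 against 19.3 CPM, while Xcr1, of type 1 cells, was at 49.0 against 180 CPM and 22.1 against 198 CPM.

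Between the libraries, the inducible genes were lower in neutrophils together with Ccl3 and Ccl4. Of 27 tested, 0 were higher and 19 lower, with a median difference of -0.90, beside 14.2% lower and a median of -0.06 over all genes. Cxcl2 was at 8856 and 3228 CPM, Tnf at 377.2 and 120 CPM, Il1a at 218 and 59.1 CPM and Traf1, a signalling adaptor, at 120 and 20.3 CPM. In mononuclear phagocytes 3 of 26 were higher and 3 lower (median -0.32, all genes -0.23), beside 2.09% higher and 8.72% lower over all genes. The higher ones were Tnf (64.5 and 115 CPM), Cxcl2 (603 and 1067 CPM) and Tnfsf9 (14.1 and 38.8 CPM), and Atf3, a stress factor, was among the lower ones at 306 and 136 CPM. In T cells, where Ccl3 and Ccl4 were higher, 1 of 21 was higher and 10 were lower (median -0.51), among them Nfkbia at 468 and 178 CPM and Tnf at 34.8 and 11.7 CPM. Over all genes tested in T cells 14% were lower. Elsewhere 0 were higher and 6 of 25 lower in dendritic cells (15% of all genes lower), 0 and 12 of 22 in B cells (7.47%), 0 and 12 of 15 in tumour cells (9.69%), and 3 and 11 of 20 in fibroblasts (27.5%).

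Of 18 cytotoxic genes tested in T cells, 8 were higher and 2 lower, beside 8.91% higher and 14% lower over all genes, so the lower count is near the share of all genes. The median difference was 0.46, beside -0.06 for all genes. Nkg7, a granule membrane protein, was at 269 and 1183 CPM, Gzmk at 19.3 and 168 CPM, Gzmb at 129 and 285 CPM and the transcription factor Eomes at 18.6 and 55.4 CPM. Ifng, at 128 and 55.4 CPM, and Xcl1, at 50.6 and 10.1 CPM, were the lower ones. Of 10 regulators of Ccl5 or of chemokine storage tested in T cells, Irf8 was higher (27.3 and 85.6 CPM), and Irf1 (154 and 78.9 CPM) and the heparan sulfate carrier Sdc4 (180 and 36.9 CPM) were lower. Beside 8.91% higher and 14% lower over all T cell genes, these counts of 1 and 2 are near the background. In the other classes 0 to 3 of those regulators were higher and 1 to 6 lower, the most in neutrophils (3 of 10 higher, 14.9% of all genes) and fibroblasts (6 of 10 lower, 27.5% of all genes). Few cytotoxic genes were tested outside T cells, at most 5 in a class.

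Of 21 other CC chemokines listed, 10 were tested in neutrophils, and 4 were higher and 1 lower, beside 14.9% higher and 14.2% lower over all genes, so the lower count is near the share of all genes. Among them were Ccl22 at 1.68 and 24.0 CPM (7 and 26 UMIs) and Ccl8, the lower gene, at 49.3 and 14.8 CPM (206 and 16 UMIs). Ccl22 was higher in dendritic cells of the same library, and the part of RNA from other classes in these neutrophil values was not tested. Ccl6, which lies in the same gene cluster as the 3 ligands, was at 608 and 821 CPM in neutrophils and 2858 and 3745 CPM in mononuclear phagocytes, where 0 of 9 were higher and 1 lower, beside 2.09% and 8.72% of all genes. Ccl22, which attracts regulatory T cells, was at 76.3 and 171 CPM in dendritic cells, the 1 of 6 tested that was higher there, beside 4.26% of all genes. In T cells 3 of 5 were higher (8.91% of all genes): Ccl24 (5.71 and 36.9 CPM), Ccl6 (95.6 and 178 CPM) and Ccl9 (25.8 and 47.0 CPM). In chemoresistant mononuclear phagocytes these 3 genes were at 198, 3745 and 890 CPM. The part of phagocyte RNA in the T cell values was not tested. In B cells 0 of 6 were called (5.47% higher and 7.47% lower), in tumour cells 2 of 6 were lower (9.69%) and in fibroblasts 4 of 8 were lower (27.5%).

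Of the other chemokine receptors, 12 were listed and few were expressed enough to test. Ccrl2, a non-signalling receptor of inflamed myeloid cells, was lower in neutrophils at 565 and 152 CPM, and Ccr2, the monocyte receptor for Ccl2, was higher there at 38.1 and 68.3 CPM and lower in mononuclear phagocytes at 546 and 350 CPM. In T cells Ccr7 was higher, at 60.9 and 102 CPM, and Ccr4 (23.6 and 6.71 CPM) and Ccr9 (58.9 and 23.5 CPM) were lower. Of the 24 genes listed for signalling below the receptor, 0 of 23 were higher and 7 lower in neutrophils (median -0.41), beside 14.2% lower over all genes, including Arrb1, an arrestin that desensitises such receptors, at 96.5 and 46.1 CPM, and the Rac activator Prex1 at 133 and 67.4 CPM. In mononuclear phagocytes 0 of 24 were higher and 4 lower (median -0.23, the same as for all genes), beside 8.72% lower over all genes, and in B cells 0 of 22 were higher and 7 lower, beside 7.47%. In the other classes the lower counts were near or below the share of all genes: 5 of 24 in dendritic cells (15%), 2 of 23 in T cells (14%), 1 of 15 in tumour cells (9.69%) and 4 of 14 in fibroblasts (27.5%). The higher counts there were 0, 2, 0 and 2.

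Over 22 pairs of class and library with at least 50 cells, the gene whose log2 level was most like that of Ccl3, of 13930 considered, was Ccl4 (Pearson r = 0.96), followed by Slfn1 (0.91), C5ar2 (0.91), Cdh23 (0.90) and Gm53692 (0.90). For Ccl4 the next after Ccl3 were Slfn1 (0.92), Lilrb4b (0.91), Arrb2 (0.89) and Vsir (0.89). For Ccl5 they were Klrd1 (0.91), Klrk1 (0.88), Itgae (0.88), Cxcr3 (0.86) and Il7r (0.86), and for Ccr1 they were Lst1 (0.99) and Cd33, Arl11, Pilra and Hk3 (0.97 each). Ccr1 followed Ccl3 with r = 0.82 and Ccl4 with r = 0.78, but Ccl5 with r = 0.09. These values describe the order of classes, whose points share a library and its depth.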

How the data were processed

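Single-cell RNA sequencing of 2 pooled tumour libraries of the ID8 model was used. The authors deposited matrices of raw UMI counts for each gene in each barcode. Per the file headers they were written by Cell Ranger 8.0.1, and per the submitters' processing notes the build was mm10. The aligner settings and the annotation version behind the gene table are not given in the sources used here. From these counts, barcodes with at least 500 UMIs, 250 genes and at most 20% mitochondrial UMIs were kept, 12824 and 14908 of them. Doublets were scored with Scrublet in scanpy 1.11.5. Its automatic calls marked 304 primary and 0 chemoresistant barcodes, so the highest scoring 10.3% and 11.9% (0.8% per 1000 barcodes) were removed instead. Each cell took the class whose marker list it held the largest share of, with at least 3 markers detected. Classes with at least 100 cells in both libraries were compared. A tied lead left 236 cells and fewer than 3 markers left 848 cells without a class. In 1650 cells (7.01% of those with a class) the runner-up share was at least 80% of the leading share. For the erythroid and acinar classes the list also had to hold at least 10% of all UMIs of the cell. Plasmacytoid dendritic cells were left out because 3 of 8 markers were highest in them in the chemoresistant library. Both choices were made after seeing the data. UMIs were summed per class, with exact Poisson intervals for levels and Clopper-Pearson intervals for shares. Tissue-type and mature neutrophils, T cell, dendritic cell and macrophage subsets were set by detected markers. Clusters used 2000 variable genes, 30 components and 15 neighbours (Leiden, igraph 0.11.9). Named genes are the 4 members, 6 lists (other CC chemokines, receptors, receptor signalling, inducible genes, cytotoxic genes and regulators of Ccl5) and the 5 genes most like each member. The members and lists were chosen with earlier results of these data known. The steps were tested on simulated data. A further receptor of these ligands is not reported here. Computation used Python 3.11.15, numpy 2.4.6, pandas 2.3.3, SciPy 1.17.1 and matplotlib 3.10.9. Without replicates there was no check of variation between tumours, and PCR copies are collapsed by UMI, so that intervals and limits for a count of 0 (3 counts) cover counting error only. Alternatives changed doublet removal, barcode limits, marker minimum, class setting, averaging, depth, the added CPM, centring and single cells.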

Additional observations from a re-analysis of the deposited data

Results flagged for a closer look

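Ccl3 and Ccl4 had opposite directions between the libraries in neutrophils and in T cells, which is why they are listed again here. Ccl3 differed by -1.88 on the log2 scale in neutrophils and by 3.11 in T cells. Ccl4 differed by -1.75 in neutrophils and by 2.94 in T cells. With 1 library per group the difference between these classes was not tested. The T cell values rest on 153 and 361 chemoresistant UMIs in 273 cells, of which the richest cell held 40 and 108.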

How the results depend on the processing

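Ccl3 and Ccl4 in neutrophils, Ccl3, Ccl4 and Ccl5 in T cells and Ccl5 in dendritic cells kept their direction and passed 1.5-fold under all 11 alternatives. Over those, Ccl3 in neutrophils ran from -2.08 to -1.37 and Ccl5 in T cells from 2.11 to 2.52. Without doublet removal, Ccl3 and Ccr1 in neutrophils were at -2.08 and -0.59, Ccl3, Ccl4 and Ccr1 in mononuclear phagocytes at -0.41, 0.30 and -0.41, and Ccl5 in T cells at 2.26; the shares of UMIs were 41.9% and 8.44% (Ccl3, neutrophils), 53.2% and 81.9% (Ccl4, mononuclear phagocytes), 40.2% and 23.1% (Ccl5, T cells), and 66.2% and 82.2% (Ccr1, mononuclear phagocytes). Stricter barcode limits gave -2.05 and -0.81 for Ccl3 and Ccr1 in neutrophils. A minimum of 5 markers gave -2.07 for Ccl3 in neutrophils, 0.074 and 0.70 for Ccl3 and Ccl4 in mononuclear phagocytes and 2.52 for Ccl5 in T cells. Classes set by clusters gave -1.55, -1.53 and 0.13 for Ccl3, Ccl4 and Ccr1 in neutrophils, 0.19 and 0.70 for Ccl3 and Ccl4 in mononuclear phagocytes, 2.11 and 1.64 for Ccl5 in T cells and dendritic cells, and -0.33 for Ccl5 in fibroblasts, against 1.12; the shares were 60.9% and 10.4% (Ccl3), 49.3% (Ccl4, primary), 52.7% and 24.1% (Ccl5) and 66.4% (Ccr1, primary). The mean over cells gave -1.37, -1.42 and -0.026 for Ccl3, Ccl4 and Ccr1 in neutrophils, -0.34, 0.57 and -0.15 in mononuclear phagocytes, and 2.30 and 1.72 for Ccl5 in T cells and dendritic cells. Thinning to 500 UMIs gave -1.42, -1.37 and -0.040 in neutrophils, -0.32, 0.58 and -0.026 in mononuclear phagocytes, and 2.31 and 1.75 for Ccl5. Centring on the median gene gave 0.20, 0.88 and 0.013 for Ccl3, Ccl4 and Ccr1 in mononuclear phagocytes and 2.50 and 1.70 for Ccl5. Of alternatives chosen after seeing the data, automatic doublet calls in the primary library gave -0.12, 0.57 and -0.15 in mononuclear phagocytes and 2.48 for Ccl5 in T cells, and leaving out the richest cell of each library gave -2.002 for Ccl4 in neutrophils and 2.49 for Ccl5 in T cells. The cause of these moves was not tested. Without a filter on low values, which adds genes to the test, 2019 against 1310 genes were higher in neutrophils, 1304 against 784 higher and 2191 against 1229 lower in T cells, and 3779 against 2480 lower in fibroblasts. Adding 1 CPM gave 1172 against 749 lower genes in mononuclear phagocytes. Centring gave 580 against 347 higher genes in tumour cells, 566 and 153 against 179 and 749 in mononuclear phagocytes, 812 and 357 against 351 and 1239 in dendritic cells, and 1449 and 1626 against 853 and 2480 in fibroblasts. No paired analysis was possible because each group has 1 library. Depth limits shares of cells with a transcript in chemoresistant neutrophils, B cells and T cells, whose median cells held 910.5, 1504 and 1773 UMIs.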
